A study of Mus musculus with 13 samples.

Results

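The 5 melanoma cell lines without E-cadherin (ΔEcad) were compared with the 4 lines that kept it (Ecad), gene by gene, for the presence of an H3K27ac peak at the promoter. The members were the 20807 autosomal protein-coding genes of GENCODE release M21, of 21951 protein-coding genes in all, with 90310 start sites among them. A promoter was called in a line where a peak of that line lay within 1 kb of an annotated start site, and a gene was then described by the number of ΔEcad and of Ecad lines that called it. The choice of genes used no measured value. A promoter was called in at least 1 line for 11295 genes, in all 9 lines for 4553, in 1 to 8 lines for 6742 and in no line for 9512.

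The lines were established from melanomas of C57BL/6J-background mice that carried the Tyr::NRAS(Q61K) transgene, were heterozygous for Cdkn2a and had both copies of Cdh1 floxed. ΔEcad mice carried Tyr::CreA in addition, a Cre recombinase under the tyrosinase promoter, which acts in cells of the melanocyte lineage, and Ecad mice carried no Cre. The ΔEcad lines were Ma_1062 and Ma_1456 from male mice and Ma_1057, Ma_1064 and Ma_1069 from female mice. The Ecad lines were Ma_1007 and Ma_1181 from male mice and Ma_1014 and Ma_1039 from female mice. Each line gave 1 peak list from chromatin immunoprecipitation with an antibody to H3K27ac and sequencing, so that the lines were the replicates. The lists held 20741 to 41663 peaks, the shortest in Ma_1069 and the longest in Ma_1007. Read depth was not given by the lists.

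E-cadherin, encoded by Cdh1, is the adhesion molecule that holds epidermal cells and melanocytes together, and its cytoplasmic tail binds the catenins. H3K27ac is the acetylation of a lysine in the tail of histone H3. It marks active promoters and enhancers, and at a promoter it lies on the nucleosomes around the start site, where it accompanies initiation by RNA polymerase II. Most promoters of widely expressed genes are rich in CpG dinucleotides, whereas promoters of tissue-restricted genes are often poor in them.

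Cdh1 itself (chromosome 8, 106603351 to 106670246 in mm10) had a called promoter in 0 of 5 ΔEcad and 0 of 4 Ecad lines, so the peaks gave no check of the deletion. The labelled cell type was visible in the lists. Of 10 melanocyte markers, 7 had a called promoter in all 9 lines, and on average 84.0% were called in ΔEcad and 87.5% in Ecad lines. Fibroblast, leucocyte, endothelial and keratinocyte markers, 10 genes each, were called at 4% to 12.5%, and 7 to 9 of the 10 were called in no line. Of 9 Schwann cell markers, which share a neural crest origin with melanocytes, 48.9% were called in ΔEcad and 66.7% in Ecad lines.

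Promoters of 6 of the genes described next are shown as RefSeq windows from 250 bases before to 50 bases after the start (GRCm38.p6, 5′ to 3′ on the gene's strand). They were chosen from both sides of the comparison, and they show where a call by distance does and does not fall on the window itself. Capitals mark matches on either strand to any of the motifs TGANTCA (AP-1), CTTTGA (TCF/LEF), GGAATG (TEAD), CACGTG (E-box), TGACGTCA (CRE), CCAAT (NF-Y) and GGGCGG (GC box). The first 3 come from genes called more often in ΔEcad and the last 3 from genes called more often in Ecad lines. P2rx7 and Meaf6 were added after their values were seen.
Etnk2: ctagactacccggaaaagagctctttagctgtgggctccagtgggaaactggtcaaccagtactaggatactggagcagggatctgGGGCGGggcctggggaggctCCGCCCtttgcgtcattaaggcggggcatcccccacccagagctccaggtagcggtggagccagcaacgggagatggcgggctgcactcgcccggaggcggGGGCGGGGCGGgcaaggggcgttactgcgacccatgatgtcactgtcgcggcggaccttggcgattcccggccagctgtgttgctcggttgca
Lalba: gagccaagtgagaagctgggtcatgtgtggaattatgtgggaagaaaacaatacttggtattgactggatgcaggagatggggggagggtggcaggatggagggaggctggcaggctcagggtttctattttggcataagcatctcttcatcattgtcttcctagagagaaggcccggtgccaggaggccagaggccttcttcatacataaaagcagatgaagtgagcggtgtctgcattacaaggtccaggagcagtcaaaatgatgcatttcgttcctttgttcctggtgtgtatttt
P2rx7: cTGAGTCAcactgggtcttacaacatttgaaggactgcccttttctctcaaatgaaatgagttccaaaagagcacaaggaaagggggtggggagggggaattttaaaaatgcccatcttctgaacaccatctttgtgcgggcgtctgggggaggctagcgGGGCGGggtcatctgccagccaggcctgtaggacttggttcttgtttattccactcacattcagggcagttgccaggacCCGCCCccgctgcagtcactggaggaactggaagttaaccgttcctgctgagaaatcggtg
Polr2f: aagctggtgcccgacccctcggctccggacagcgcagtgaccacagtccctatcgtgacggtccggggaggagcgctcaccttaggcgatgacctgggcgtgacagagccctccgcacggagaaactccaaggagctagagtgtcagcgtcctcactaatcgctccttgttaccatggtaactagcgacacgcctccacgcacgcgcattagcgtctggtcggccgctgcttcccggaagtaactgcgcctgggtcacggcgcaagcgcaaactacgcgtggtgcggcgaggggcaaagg
Postn: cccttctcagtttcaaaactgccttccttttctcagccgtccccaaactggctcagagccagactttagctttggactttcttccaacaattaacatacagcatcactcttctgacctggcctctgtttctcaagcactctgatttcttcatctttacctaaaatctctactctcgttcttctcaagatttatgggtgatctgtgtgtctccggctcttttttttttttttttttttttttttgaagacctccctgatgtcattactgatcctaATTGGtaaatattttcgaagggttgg
Meaf6: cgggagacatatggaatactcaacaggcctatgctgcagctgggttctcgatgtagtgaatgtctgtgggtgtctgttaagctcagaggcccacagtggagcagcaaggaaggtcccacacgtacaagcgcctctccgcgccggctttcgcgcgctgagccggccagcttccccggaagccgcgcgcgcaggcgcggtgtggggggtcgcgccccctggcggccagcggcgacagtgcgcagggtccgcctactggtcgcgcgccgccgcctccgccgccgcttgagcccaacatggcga

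The Etnk2 window lies at chr1:133363322-133363621, that of Lalba at chr15:98482634-98482933 on the minus strand and that of P2rx7 at chr5:122643677-122643976. The windows of Polr2f, Postn and Meaf6 lie at chr15:79141075-79141374, chr3:54359017-54359316 and chr4:125084884-125085183. Meaf6 and Polr2f had CpG-rich windows, with an observed over expected CpG ratio of 0.981 and 1.02, and Lalba had a CpG-poor one at 0.186. No motif of the 7 was found in the Lalba, Polr2f or Meaf6 window. A peak covered part of the window in 0 lines for Etnk2, 6 for Lalba, 3 for P2rx7, 1 for Polr2f, 9 for Postn and 4 for Meaf6, which shows that a call within 1 kb need not lie on the window printed.

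Fewer promoters were called in every ΔEcad line than in any Ecad line. Ma_1062, Ma_1456, Ma_1057, Ma_1064 and Ma_1069 called 8263, 8428, 6488, 7214 and 5466 genes. Ma_1007, Ma_1181, Ma_1014 and Ma_1039 called 10397, 9347, 8799 and 8577 genes. The 2 groups did not overlap, and the mean was 7172 ± 1240 (SD, n = 5) in ΔEcad and 9280 ± 812 (SD, n = 4) in Ecad lines. ΔEcad minus Ecad was -2108 genes, with an exact permutation p of 0.0317 (two-sided, over 126 splits of the lines, which allow a p of 0.00794 at the smallest). Within female lines ΔEcad minus Ecad was -2299 genes (exact permutation p = 0.1, the smallest possible with 3 against 2 lines), and within male lines it was -1526.5 (exact permutation p = 0.333, the smallest possible with 2 against 2 lines). The promoter share of the autosomal peaks was 32.6% ± 3.80 (SD, n = 5) in ΔEcad and 34.3% ± 4.31 (SD, n = 4) in Ecad lines and overlapped between the groups. ΔEcad minus Ecad was -4.49 percentage points in female and 2.10 in male lines.

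**Figure D1:**
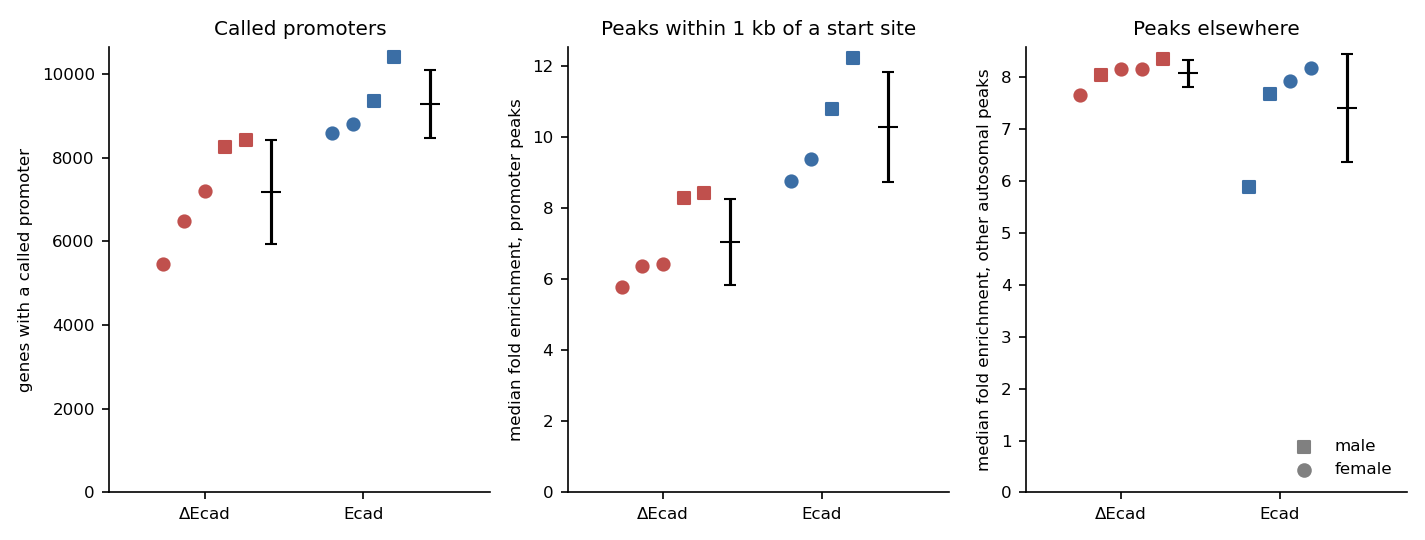
Genes with a called promoter (left), median fold enrichment of peaks within 1 kb of a start site (middle) and of all other autosomal peaks (right), 1 point a line, squares for male and circles for female lines, with mean and SD beside each group. The 5 ΔEcad lines lie below all 4 Ecad lines in the left and middle panels and overlap them in the right panel.

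The enrichment of the promoter peaks also separated the genotypes, while that of the other peaks did not. Fold enrichment is the height of a peak over a background set in peak calling. Which library gave that background for each line is not given. Its median over promoter peaks was 8.28, 8.41, 6.37, 6.42 and 5.78 in Ma_1062, Ma_1456, Ma_1057, Ma_1064 and Ma_1069, and 10.8, 12.2, 9.36 and 8.76 in Ma_1007, Ma_1181, Ma_1014 and Ma_1039. The mean of these medians was 7.05 ± 1.21 (SD, n = 5) in ΔEcad and 10.3 ± 1.54 (SD, n = 4) in Ecad lines (exact permutation p = 0.00794, the smallest possible). For autosomal peaks away from start sites it was 8.08 ± 0.256 (SD, n = 5) and 7.42 ± 1.04 (SD, n = 4), and the groups overlapped (exact permutation p = 0.167). The difference was -0.0574 within female and 1.42 within male lines. The ratio of the promoter median to the other median was 0.754 to 1.04 in ΔEcad and 1.10 to 1.83 in Ecad lines (exact permutation p = 0.00794, the smallest possible). At the 4553 promoters called in all 9 lines, the median fold was 6.30 to 12.6 in ΔEcad and 13.9 to 23.7 in Ecad lines, so the lower enrichment was also present at promoters with a call in every line. These medians were examined after the counts were seen. Promoter peaks had a median width of 812 to 1188 bp in ΔEcad and 1017 to 1332 bp in Ecad lines, which overlapped (difference of means -233 bp, exact permutation p = 0.0635). Library quality and depth cannot be told apart from genotype in these lists.

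A gene was said to lean where the shares of lines with a called promoter differed by at least 0.75, which at 5 against 4 lines is the same as an unadjusted two-sided p under 0.05 by Fisher's exact test. To the ΔEcad side leaned 5 genes, 0.024% of all 20807, and to the Ecad side 616 genes, 2.96%. A promoter called in all 4 Ecad and no ΔEcad line was found for 130 genes (exact p = 0.00794 each), in all 4 Ecad and 1 ΔEcad line for 301 and in 3 Ecad and no ΔEcad line for 185 (exact p = 0.0476 each). The opposite full separation, all 5 ΔEcad and no Ecad line, was found for 0 genes. With Benjamini-Hochberg adjustment over the 6742 genes called in 1 to 8 lines, 0 genes (0.0%) passed Fisher's exact test at 0.05, 621 had an unadjusted p under 0.05, and the smallest adjusted p was 0.412. The smallest p that 5 against 4 lines allow by Fisher's exact test is 0.00794, and the 130 genes that reached it were too few to pass after adjustment. No single gene was therefore called different by this test, which reflects this limit of the design and does not show the genes to be alike. The leaning genes are described as a ranking. Without regard to size, the share was larger in Ecad for 5911 and in ΔEcad for 831 genes.

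**Figure D2:**
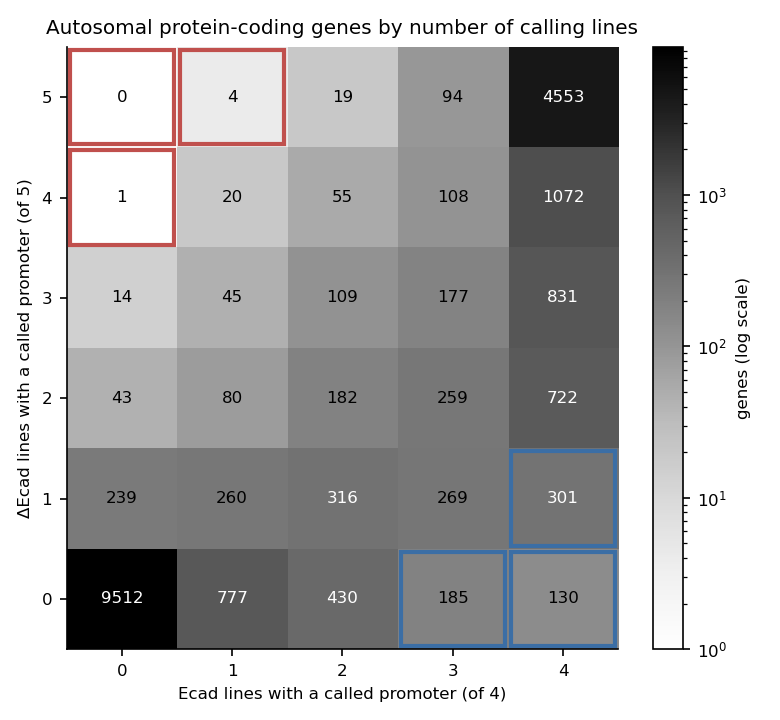
Number of genes (printed, shaded on a log scale) for each number of Ecad lines (x axis, of 4) and ΔEcad lines (y axis, of 5) that called the promoter, with leaning cells outlined in blue (Ecad) and red (ΔEcad). The 3 blue cells hold 130, 301 and 185 genes and the 3 red cells 0, 4 and 1.

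How lopsided the count was depended on how many promoters each line was allowed. When each line was held to its 5466 strongest promoters by −log10 q, the number called in Ma_1069, 124 genes (0.596%) leaned to ΔEcad and 147 (0.706%) to Ecad. Of the 616 genes that leaned to Ecad in the full lists, 33 (5.36%) still did so, and of the 5 that leaned to ΔEcad, 3 did. This setting was chosen after the counts were seen. Cutting every list to the length of the shortest, 20741 peaks, left 15 genes toward ΔEcad and 460 toward Ecad, of which 4 and 232 leaned in the full lists. Windows of 500 bp and 2 kb, a −log10 q of at least 10 and the gene's 5′ end alone gave 3 to 7 genes toward ΔEcad and 590 to 737 toward Ecad. The Ecad count was 1321 without Ma_1062 and 1350 without Ma_1456, and 658, 810 and 654 without Ma_1057, Ma_1064 and Ma_1069. The ΔEcad count was 2 without Ma_1014 or Ma_1039, 3 without Ma_1181, 21 without Ma_1007, and 16, 13, 9, 12 and 23 without Ma_1062, Ma_1456, Ma_1057, Ma_1064 and Ma_1069.

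**Figure D3:**
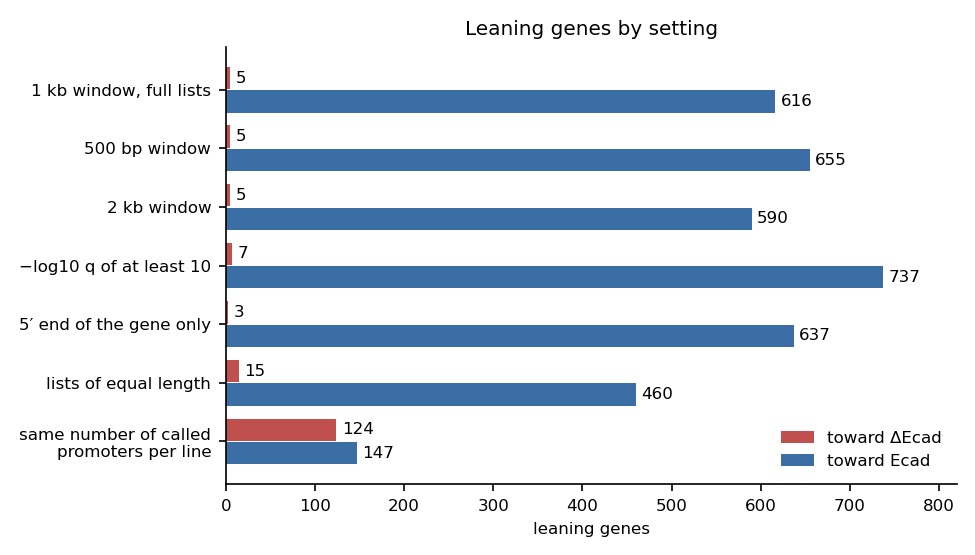
Leaning genes (x axis) toward ΔEcad (red) and Ecad (blue) under 7 settings that use all 9 lines. The blue bar is longer in each, from 737 against 7 at a −log10 q of at least 10 to 147 against 124 with the same number of called promoters per line.

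On the ΔEcad side, 5 genes met the rule. Lalba encodes α-lactalbumin, the regulatory subunit of lactose synthase. Its fold enrichment was 20.9, 11.6, 23.0, 28.0 and 11.6 in Ma_1062, Ma_1456, Ma_1057, Ma_1064 and Ma_1069, and 12.4 in Ma_1007, the 1 Ecad line with a call. In Ma_1181, Ma_1014 and Ma_1039 the nearest peak was 50371, 30287 and 38378 bp from the start. Lalba was the 1 gene that leaned to ΔEcad under all 7 settings with all lines.

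Slit2, a secreted ligand of the Robo receptors in axon guidance, was called with a fold of 46.0, 46.4, 17.8, 8.15 and 11.9 in the 5 ΔEcad lines in the same order, and of 6.60 in Ma_1007. The strongest peak was not at the same start site in all of them. It lay at chr5:48177932-48182559 in Ma_1062 and at chr5:48177130-48182582 in Ma_1456, and at an internal start near chr5:48244431-48246202 in the 3 female lines and Ma_1007. The 3 uncalled Ecad lines had a peak 1363 to 2111 bp from a start, and with a 2 kb window Slit2 no longer leaned (share difference 0.25). P2rx7, an ATP-gated cation channel, had a fold of 4.70, 11.3, 9.08, 6.45 and 5.18 in the ΔEcad lines and 11.6 in Ma_1007, and its nearest peak in the other Ecad lines was 9763 to 10186 bp away. Ube4a, a ubiquitin ligase with a U-box, had 5.03, 10.7, 6.71, 4.99 and 4.82 in the ΔEcad lines and 9.14 in Ma_1007. Etnk2, an ethanolamine kinase of phospholipid synthesis, was called in 4 ΔEcad lines (5.38, 5.29, 8.52 and 4.76 in Ma_1456, Ma_1057, Ma_1064 and Ma_1069) and in no Ecad line. Its peaks lay near an internal start, at chr1:133367592-133368696 in Ma_1064, which is why no peak covered the window printed for it. Ma_1007, the longest list, supplied the single Ecad call of the 4 genes that had such a call.

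The next genes on this side were called in 3 ΔEcad and no Ecad line, a share difference of 0.6 that did not meet the rule. The strongest were Cyp7a1, the rate-limiting enzyme of bile acid synthesis, with a fold of 36.3, 32.0 and 50.1 in the female lines Ma_1057, Ma_1064 and Ma_1069, and Spaar, a small peptide of the amino acid response, with 31.1, 10.2 and 19.6 in Ma_1456, Ma_1057 and Ma_1064. For Cyp7a1 the other 6 lines had a peak 1388 to 17169 bp from a start. Tfap2b, an AP-2 transcription factor of the neural crest, had peaks of 12667 and 15463 bp in Ma_1057 and Ma_1069 with a fold of 20.2 and 37.0, and a peak of 1670 bp with a fold of 5.25 in Ma_1456. Rab7b, a GTPase of endosomes, was called in Ma_1062, Ma_1456 and Ma_1064. Naip2, a sensor of the inflammasome, and Mboat1, an acyltransferase of phospholipids, were called in the 3 female lines. Krtap1-5, Txlnb, Zfyve28 and Tspyl4 completed the 15.

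On the Ecad side, the 15 leading genes were each called in 4 of 4 Ecad and 0 of 5 ΔEcad lines, and for 5 of them the ΔEcad lines had a peak just outside the window. Ccdc166 had a fold of 23.4, 28.2, 30.0 and 32.2 in Ma_1007, Ma_1181, Ma_1014 and Ma_1039, while the nearest peak of the ΔEcad lines lay 1036 to 1424 bp from a start. Polr2f encodes a subunit shared by the RNA polymerases. Its strongest peak was 21719, 27406 and 27380 bp wide in Ma_1181, Ma_1014 and Ma_1039, and in each of the 3 it also lay at the start of Sox10, a transcription factor of the melanocyte lineage. In Ma_1007 it was a separate peak of 585 bp at the window printed above. In the ΔEcad lines the nearest peak ended 1078 to 1221 bp from a Polr2f start. Postn, the matrix protein periostin, had 17.3, 40.4, 20.7 and 24 in the Ecad lines and a peak 1081 to 1776 bp from a GENCODE start in the ΔEcad lines. The nearest Ecad peaks were themselves 83 to 949 bp from a start, and a peak covered the RefSeq window printed above in all 9 lines, so that the Postn difference rests on the annotation. Tmod1, which caps the slow end of actin filaments, and Med27, a subunit of the Mediator complex, had ΔEcad peaks at 1030 to 2141 bp and 1125 to 10871 bp. The Ecad calls of Med27 lay at different starts. The strongest peak was at chr2:29346863-29347147 with a fold of 4.32 in Ma_1181, and at chr2:29504924-29507381 in Ma_1014. With a 2 kb window the share difference was 0 for Ccdc166, Polr2f and Postn and -0.2 for Tmod1 and Med27, so these 5 no longer leaned.

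For the other leading genes the ΔEcad lines had no peak within 2 kb of a start. For some, every ΔEcad line had a peak not much farther out. The distance was 2434 to 2898 bp for Hspg2, 2788 to 3224 bp for Rex1bd, 3504 to 3727 bp for Crim1 and 2869 to 8466 bp for Kif21b. Meaf6, a subunit of histone acetyltransferase complexes, had narrow peaks of 275 to 564 bp with a fold of 11.6, 14.7, 15.1 and 9.99 in Ma_1007, Ma_1181, Ma_1014 and Ma_1039, and its nearest ΔEcad peak was 13979 to 45836 bp away. Pank4, of the pantothenate kinase family, had 11.9, 17.3, 11.4 and 10.3, and a nearest ΔEcad peak at 22402 to 90631 bp. Cnnm3, a member of a family of magnesium transport proteins, had 16.5, 16.1, 10.4 and 7.89, with 17921 to 18172 bp. The peaks of these 3 genes were thus present in each Ecad list at a moderate height, and the space around them was empty in each ΔEcad list. Olfml1 had 8.79, 23.8, 15.0 and 17.2, and Rex1bd had 8.03, 24, 16.1 and 9.10. Kif21b, a kinesin, had 8.70, 9.07, 17.8 and 10.6. P4htm, a prolyl hydroxylase, and Wdr6 shared their promoter peaks, with a fold of 7.85, 20.3, 5.86 and 7.50. These peaks lay at the 5′ end of Wdr6 and near an internal start of P4htm. With the 5′ end alone P4htm no longer leaned. Hspg2 encodes perlecan, a proteoglycan of basement membranes, and had 8.90, 2.97, 18.5 and 28.3, the lowest value at the 0.115 percentile of its list, close to the limit of a call. Myh14, a non-muscle myosin, had 5.98, 7.12, 15.1 and 11, and Crim1, a membrane protein that binds bone morphogenetic proteins, had 9.64, 9.89, 14.5 and 8.35.

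**Figure D4:**
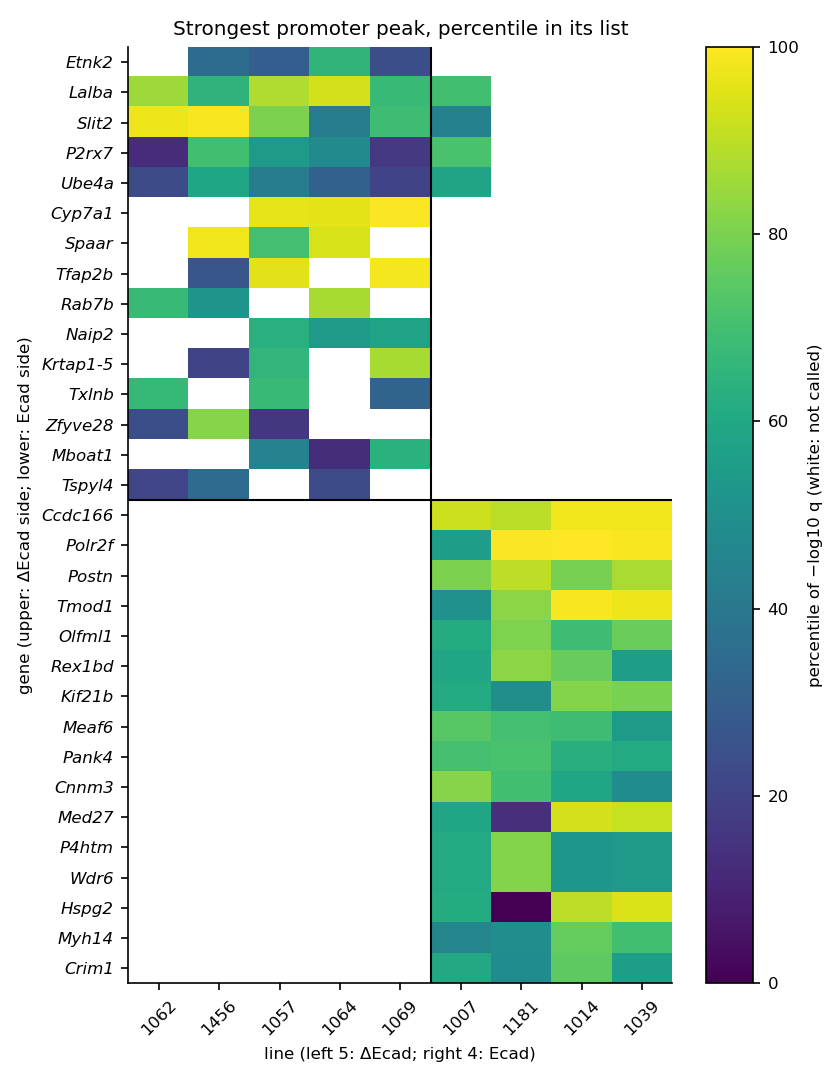
Percentile, within its own list, of the −log10 q of the strongest promoter peak (colour, 0 to 100; white where no promoter was called) for the 15 leading genes of each side and Wdr6 (rows) in the 9 lines (columns). The genes of the ΔEcad side that were called in an Ecad line were all called in Ma_1007, and the Ecad side spans the 0.115 percentile (Hspg2, Ma_1181) to the 99.7 percentile (Polr2f, Ma_1014).

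A group of 14 genes leaned to Ecad under each of the 7 settings with all lines, 2.27% of the 616. They were Apoe, Kcnj10, Camk2n1, Map2k4, Cenpb, Ubn2, Copg2, B3glct, Letmd1, Meaf6, Pank4, Cnnm3, Olfml1 and Rex1bd, and they were picked out after their values were seen. Apoe, the lipid-binding apolipoprotein E, was called in Ma_1181, Ma_1014 and Ma_1039 with a fold of 19.6, 16.6 and 10.7 and in no other line. Kcnj10, an inwardly rectifying potassium channel, had 50.9, 16.3, 5.84 and 18.4 in Ma_1007, Ma_1181, Ma_1014 and Ma_1039, and 32.2 in Ma_1062. Camk2n1, an inhibitor of calcium/calmodulin-dependent kinase II, had 18.1, 23.3, 23.3 and 22.2 in the Ecad lines and 14.2 in Ma_1062. Map2k4, a kinase upstream of JNK, had 14.7, 14.0, 10.6 and 8.05, and 8.08 in Ma_1456. Cenpb, which binds centromeric DNA, had 14.5, 7.89, 14.3 and 9.87 and no ΔEcad call.

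The calls that chose the 616 genes are described here by line and by sex, with no test. Where called, their promoters had a median within-list percentile of −log10 q of 40.2 in the Ecad lines, beside 82.6 for the genes called in all 9 lines and 53.0 for genes called in 1 to 8 lines without a lean. Of the 301 genes with a single ΔEcad call, Ma_1062 supplied 155 and Ma_1456 114, and Ma_1057, Ma_1064 and Ma_1069 supplied 8, 20 and 4. The male ΔEcad lines Ma_1062 and Ma_1456 thus supplied most of these calls. They also called the most promoters of the ΔEcad lines over all genes, 8263 and 8428. The female lines Ma_1057, Ma_1064 and Ma_1069 called 6488, 7214 and 5466. These calls helped to choose the genes, so they cannot separate sex from the number of promoters a line called, and this was not tested. Of the 185 genes called in 3 Ecad and no ΔEcad line, the missing Ecad line was Ma_1039 for 92, Ma_1181 for 44, Ma_1014 for 36 and Ma_1007 for 13. In female lines alone 1187 genes (5.70%) were fully separated toward Ecad and 66 (0.317%) toward ΔEcad, and in male lines alone 733 (3.52%) and 25 (0.120%). Among the 616 genes, 456 were fully separated in the female and 290 in the male lines.

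Where a ΔEcad line lacked the call of an Ecad-leaning gene, the nearest peak lay more than 10 kb away in most cases. Over 2779 such pairs of gene and line the median distance was 20568 bp (interquartile range 7161 to 51576 bp), 6.19% had a peak within 2 kb and 31.9% within 10 kb of a start, and 22.6% had one in the gene body. For genes called in 1 to 8 lines without a lean, the share within 10 kb in uncalled ΔEcad lines was 27%. The 616 genes came from 566 separate promoter regions, since 100 genes shared their peaks in 50 regions with another leaning gene. They were spread over all 19 autosomes, from 3.85% of the genes called in at least 3 Ecad lines on chromosome 12 to 10.1% on chromosome 8, against 7.08% over all autosomes.

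The promoters of the Ecad-leaning genes were closer in GC content to those of genes called in all lines than to those of genes called in none. In windows read from the genome for all genes, from 250 bases before to 50 after the GENCODE start, the median GC content was 60.7% in the 616 genes, 60.0% in the genes called in all lines, 49.7% in the genes called in none and 55.3% in all 20807. The median CpG observed over expected ratio was 0.737, 0.800, 0.240 and 0.543 in the same order. A GC box was found in 65.1% of the windows of the 616 genes, 61.1% of those of genes called in all lines and 43.6% of all windows. In the same order, a CCAAT box was found in 39.3%, 37% and 38.3%, a TEAD motif in 13.8%, 11% and 13.5%, and an AP-1 motif in 4.55%, 4.41% and 6.96%. TCF/LEF motifs were found in 12.5%, 11.8% and 15.2%, E-boxes in 7.95%, 11.3% and 7.81%, and CRE motifs in 3.08%, 3.91% and 2.47%. Genes called in 1 to 8 lines without a lean were also close to the 616. Their windows had a GC box in 57.4%, a median GC content of 59% and a median CpG ratio of 0.709. This base composition was therefore not particular to the leaning genes. The median ratio of the 5 ΔEcad-leaning genes was 0.299, and 20% of them had a ratio of at least 0.6.

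The gene lists are read against all 20807 genes, of which on average 34.5% were called in ΔEcad and 44.6% in Ecad lines. Of these, 9512 were called in no line, which lowers both shares, the gap between them and the share that leaned. A list with few such members can thus show a wider gap without differing from the genes that were called. Called in no line were 1 of 28 cell cycle, 5 of 25 YAP and TEAD target, 9 of 28 interferon, 5 of 36 axon guidance and 0 of 31 proteasome genes. The lists were not compared with called genes only. The list with the widest gap held cell cycle genes. Of its 28 members, 63.6% were called in ΔEcad and 89.3% in Ecad lines, 17 had the larger share in Ecad and none in ΔEcad. The number called was 20, 19, 17, 21 and 12 in Ma_1062, Ma_1456, Ma_1057, Ma_1064 and Ma_1069, and 23, 26, 27 and 24 in Ma_1007, Ma_1181, Ma_1014 and Ma_1039, without overlap. The members that leaned to Ecad were 4 (14.3%, beside 2.96% of all genes). They were Ccne1 and Ccne2, the E-type cyclins that act at entry into S phase, E2f2, a transcription factor of the same step, and Mcm2, a subunit of the replicative helicase. Ccne2 was called in Ma_1007, Ma_1181 and Ma_1014 with a fold of 9.74, 10.7 and 4.31, and E2f2 in the same lines with 7.27, 9.71 and 6.73. Ccne1 had 4.30, 10.0, 4.85 and 2.90 in the Ecad lines and 4.49 in Ma_1062, and Mcm2 had 4.45, 6.85, 3.83 and 3.73, and 3.44 in Ma_1064. With the same number of called promoters per line, none of the 28 leaned to Ecad and 1 leaned to ΔEcad. It was E2f1, named after its value was seen, which all 4 Ecad and 4 ΔEcad lines called in the full lists. Cyclin D1 and D2, Cdk2, Cdk4, Cdkn1a, Cdkn1b, Rb1 and Myc were called in all 9 lines.

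Targets of YAP and TEAD, the effectors of the Hippo pathway, were called at 49.6% in ΔEcad and 66.0% in Ecad lines. To Ecad leaned 3 of 25 (12%, beside 2.96% of all genes). With the same number of called promoters per line, 0 of the 25 leaned to Ecad and 1 leaned to ΔEcad. Besides Crim1 they were Ccn2, a matricellular growth factor, with a fold of 7.31, 17.4, 14.0 and 8.21 in Ma_1007, Ma_1181, Ma_1014 and Ma_1039 and 4.17 in Ma_1062, and Dock5, an activator of Rac, with 5.19, 3.65, 5.37 and 7.01 and 4.99 in Ma_1456. The interferon list of 28 genes was called at 30.7% and 47.3%, and its members that leaned to Ecad included Stat2 and Ifih1. Stat2, which carries the interferon signal to the nucleus, had 6.88, 11, 7.39 and 5.95 in Ma_1007, Ma_1181, Ma_1014 and Ma_1039, and 5.79 in Ma_1062. Ifih1, a sensor of double-stranded RNA, was called in Ma_1007, Ma_1014 and Ma_1039 with 6.40, 5.69 and 4.91. The interferon list overlapped between the groups, since Ma_1181 called 8 and Ma_1062 14 of the 28.

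Among cadherins and catenins, Cdh2 (N-cadherin), Cdh19, Ctnna1, Ctnnb1 (β-catenin) and Ctnnd1 (p120) were called in all 9 lines, and 12 of 26 were called in none. The 2 that leaned to Ecad (7.69%, beside 2.96% of all genes) were Arvcf and Nectin3. Arvcf, a catenin of the p120 family, was called in Ma_1007, Ma_1181 and Ma_1014 with a fold of 5.12, 5.15 and 7.57. Its strongest peak lay at chr16:18379758-18381460 in Ma_1014 and elsewhere, at chr16:18392686-18393067, in Ma_1007. Nectin3, a junctional adhesion molecule, was called in Ma_1007, Ma_1181 and Ma_1039 with 22.1, 10.6 and 5.73. Of matrix genes, 3 of 28 (10.7%) leaned to Ecad, Postn, Timp2 and Vcan. Timp2, an inhibitor of metalloproteinases, had 9.65, 13.4, 7.17 and 6.87 in Ma_1007, Ma_1181, Ma_1014 and Ma_1039, and 6.04 in Ma_1456. Vcan, the proteoglycan versican, had 9.99, 20.6, 7.31 and 6.15, and 7.19 in Ma_1069. In the integrin and laminin list and in the TGF-β and BMP list, 1 of 28 genes each leaned to Ecad (3.57%), near the 2.96% of all genes. Lamb2, a laminin chain, had 7.58, 9.29, 4.28 and 4.30, and 5.72 in Ma_1456. Tgfbr3, a co-receptor of TGF-β, had 5.63, 8.37, 3.06 and 4.60, and 3.72 in Ma_1456. Of the list members that leaned to Ecad, Postn and Kcnj10 alone did so with the same number of called promoters per line, and Slit2 still leaned to ΔEcad.

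Lists tied to the melanocyte and to the RAS pathway showed gaps narrower than the -10.1 percentage points of all genes, as did several other lists. Pigment genes were called at 80.0% and 87.0%, transcription factors of the melanocyte and neural crest at 52.0% and 55.0%, and feedback genes of the RAS-MAPK pathway at 85.0% and 86.5%. None of their members leaned, beside 2.96% of all genes toward Ecad. Genes called in all 9 lines cannot show a gap, and these were 15 of 23 pigment and 17 of 24 RAS-MAPK genes. Targets of β-catenin were called at 34.6% in both groups, and the oestrogen receptor list at 27.1% and 26.5%. These means pool members of both directions. The share was larger in ΔEcad for 5 and in Ecad for 6 β-catenin targets, and for 3 and 3 genes of the oestrogen receptor list. Some calls split by line, in genes named after their values were seen. Esr1 was called in Ma_1057, Ma_1064, Ma_1069 and Ma_1007. Sp5 and Tcf7 were called in these 4 lines and Ma_1181, and Apcdd1 in Ma_1057 and Ma_1069. Axon guidance genes were called at 34.4% and 50%, with Slit2 the 1 leaning member. Ma_1007 and Ma_1181 called 27 and 19 of the 36, while Ma_1014 and Ma_1039 called 14 and 12, within the 11 to 14 of the ΔEcad lines. Without a leaning member were also the lists of AP-1 and immediate early genes (66.2% and 76.9%), the proteasome (78.1% and 91.1%), glycolysis and hypoxia (58.0% and 68.3%), sterol synthesis (77.9% and 85.7%), EMT (30.9% and 39.8%), growth factors and receptors (31.2% and 38.3%), chemokines and cytokines (12.1% and 20.5%), tight junctions, desmosomes and gap junctions (23.6% and 26.8%) and the Hox clusters (5.29% and 10.3%). Ribosomal protein genes were called at 99.0% and 100%. Of the 39, each ΔEcad line called 38 or 39. TGF-β and BMP genes were called at 52.1% and 61.6%, integrins and laminins at 40.7% and 48.2%, and potassium channels and glutamate receptors at 14.4% and 20.3%.

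**Figure D5:**
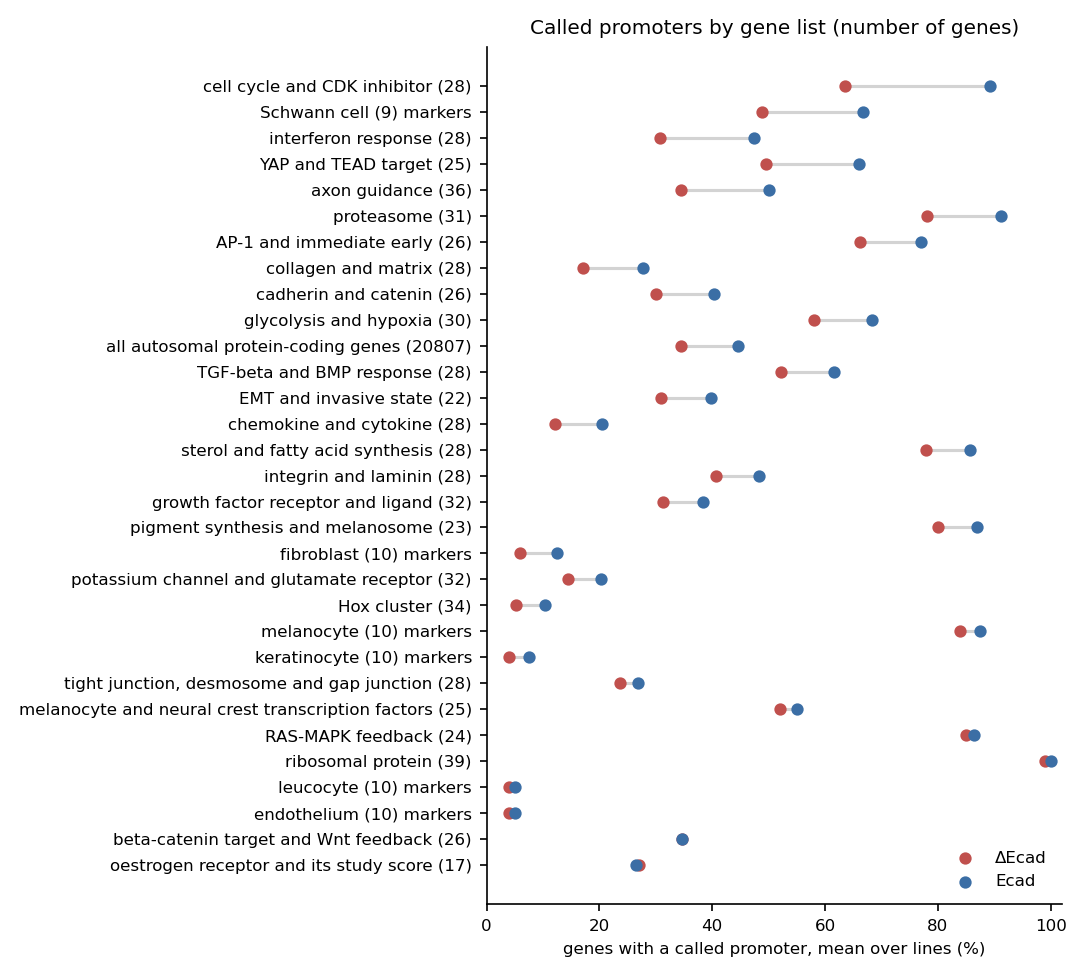
Share of the genes of each list with a called promoter, averaged over the 5 ΔEcad (red) and 4 Ecad (blue) lines (x axis, percent), sorted by the difference, with the number of genes in brackets. The cell cycle list has the widest gap (63.6% and 89.3%), β-catenin targets have none (34.6%), and all autosomal protein-coding genes are at 34.5% and 44.6%.

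Families of gene symbols, taken as the letters before the first digit with at least 20 members, gave 110 families, of which 51 held no leaning gene. The largest shares leaning to Ecad were in subunits of Mediator (Med, 5 of 28, 17.9%), centrosomal proteins (Cep, 5 of 36, 13.9%), proteins of the small subunit of the mitochondrial ribosome (Mrps, 4 of 29, 13.8%) and RNA polymerase subunits (Polr, 3 of 28, 10.7%), beside 2.96% of all genes. The Mediator members were Med26, Med27, Med29, Med30 and Med31, and the centrosomal ones Cep72, Cep85, Cep131, Cep164 and Cep192. Med27 and, of the Polr family, Polr2f no longer leaned with a 2 kb window. These families were called more often than genes at large in both groups, Mediator at 59.3% and 84.8% and Cep at 46.1% and 76.4%. The families were ranked after their counts were seen, and no test was made.

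Genes called in all 9 lines cannot lean, and for these 4553 the fold enrichment of the strongest promoter peak was compared instead, with limma on log2 values after quantile normalisation of the lists. Before normalisation the median log2 difference, ΔEcad minus Ecad, was -0.92, and after it was -0.01, so the changes given here are relative to that shift. The test called 133 promoters (2.92%) higher and 125 (2.75%) lower in ΔEcad at an adjusted p of 0.05. Median centring gave 156 higher and 96 lower. Without any scaling 2068 were lower and 5 higher.

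Slc6a15, a transporter of neutral amino acids, had a fold of 17.7, 13.5, 19.8, 18.4 and 10.3 in Ma_1062, Ma_1456, Ma_1057, Ma_1064 and Ma_1069, and 7.53, 8.09, 5.08 and 6.41 in Ma_1007, Ma_1181, Ma_1014 and Ma_1039. The groups did not overlap, and the scaled log2 difference was 2.01 ± 0.26 (SE), with an adjusted p of 0.00654 by limma. Mef2c, a transcription factor of muscle and neural crest, had 15.5, 12.0, 10.7, 12.0 and 8.63 in the ΔEcad and 6.60, 4.95, 7.12 and 6.97 in the Ecad lines, also without overlap, with a scaled log2 difference of 1.68 ± 0.27 (SE, limma adjusted p = 0.0081). Farsb, a subunit of phenylalanyl-tRNA synthetase, Eml4, which binds microtubules, and Card6 were the other 3 of the 5 leading genes, with scaled log2 differences of 1.71, 1.62 and 1.74. The unscaled folds of each of these 3 overlapped between the groups, and with a 2 kb window Farsb was no longer called (log2 difference 0.76, limma adjusted p = 0.149).

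Ube2m, the enzyme that conjugates NEDD8, had a fold of 12.2, 11.5, 5.47, 3.37 and 3.16 in the ΔEcad lines in the same order and 44.7, 57.1, 39.4 and 30.0 in the Ecad lines. The groups did not overlap, and the scaled log2 difference was -1.98 ± 0.31 (SE, limma adjusted p = 0.00768). Dazap2 had 13.3, 10.8, 8.15, 7.27 and 6.20 against 52.9, 69.2, 48.1 and 27.5, and Pcif1, the methyltransferase of the adenosine next to the mRNA cap, had 13.3, 12.2, 9.46, 6.84 and 6.45 against 63.0, 74.5, 37.1 and 32.3, with scaled log2 differences of -1.57 and -1.58. 1810010D01Rik and the kinase gene Pdik1l were the other leading genes that were lower, with scaled log2 differences of -1.87 and -1.50. In each of these 5 genes all ΔEcad lines lay below all Ecad lines in the deposited values. The median fold of all 4553 promoters was separated in the same direction before scaling. The separation is thus not particular to these genes and adds no support for them.

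Few members of the gene lists were called by limma. Ctnna1, the α-catenin that links cadherins to actin, had a fold of 8.48, 9.06, 4.51, 3.81 and 6.12 in the ΔEcad and 30.0, 38.1, 19.1 and 19.2 in the Ecad lines, with a scaled log2 difference of -1.14 ± 0.27 (SE, limma adjusted p = 0.0336). Ctnnb1 had 16.0, 16.3, 12.1, 16.4 and 11.6 against 15.2, 16.1, 14.0 and 11.8. Its unscaled values overlapped between the groups, and its scaled log2 difference was 0.94 ± 0.24 (SE, limma adjusted p = 0.0384), relative to the lower enrichment of the other promoters. Mlana, a melanosome protein, had 34.9, 28.8, 62.8, 38.8 and 81.6 against 26.4, 16.6, 31.6 and 32.0, with a scaled log2 difference of 1.50 ± 0.39 (SE, limma adjusted p = 0.0411). The unscaled values of Mlana overlapped between the groups. Nrip1, a co-repressor of nuclear receptors, was lower by limma (log2 difference -0.94), and P4ha1, a collagen prolyl hydroxylase, and Psmc2, a proteasome subunit, were higher (1.26 and 1.05), the latter pair with overlapping unscaled values. Bambi, of the TGF-β and BMP list, was also higher (1.13), with overlapping unscaled values. Of 37 ribosomal protein genes tested, 1 was higher (Rpl3) and 1 lower (Rps6). In the YAP, RAS-MAPK, cell cycle, AP-1 and sterol lists, 8, 17, 10, 10 and 18 genes were tested and none passed. Of all 4553 genes, 2.92% were called higher and 2.75% lower. Lists this short may hold no call at those shares, so these lists are not shown to be unchanged. The windows of the promoters called higher and lower had a median GC content of 57.3% and 62.3%, beside 60.0% in all 4553, and the part of base composition in these differences was not tested. The number called was 14 without Ma_1014, 75, 92 and 63 without Ma_1007, Ma_1181 and Ma_1039, and 32, 26 and 91 without Ma_1057, Ma_1064 and Ma_1069, against 258 in all, and 4 with −log10 q in place of fold enrichment.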

How the data were processed

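H3K27ac chromatin from 9 melanoma cell lines fixed in paraformaldehyde was sequenced in pairs of reads. The submitters' processing notes name Bowtie2 2.4.5, MACS2 2.2.7.1 and deepTools 3.5.1.0.0 with GRCm38/mm10. The settings of peak calling and the use of each input are not given in the sources used here, and the 4 input samples were not analysed here. The authors deposited 1 list of narrow peaks a line, with a score, a fold enrichment (a linear ratio over background), −log10 p-value, −log10 q-value and summit offset. All deposited peaks had a −log10 q of at least 5.00, and the lists gave no depth. Coordinates are mm10, and start sites come from GENCODE M21.

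Calls were compared with Fisher's exact test (scipy 1.17.1) and Benjamini-Hochberg adjustment, 1 value a line with the two-sided exact permutation test, and fold enrichment with limma 3.58.1 in R 4.3.3. The steps were tested on simulated data. Members, lists and tests were chosen with earlier results of these data known. Named were the 15 genes a side with the largest difference in share, ties going to the higher mean percentile of −log10 q. Predicted and Riken-only symbols were passed over, and genes with all promoter peaks in common were named together. Also named were the 5 genes with the smallest limma p in each direction, leaning members of the 24 gene lists and Cdh1. RefSeq promoter windows (GRCm38.p6) matched 15704 of the genes, so base composition was read from the genome. Alternatives were windows of 500 bp and 2 kb, lists of equal length, a −log10 q of at least 10, the 5′ end alone, each sex, each line left out and other scalings. The values of 1 leaning list member are not reported here. The lines carry no replicate numbers in the labels. Whether a line is 1 clone is not given in the sources used here, and p-values measure the spread between lines.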

Additional observations from a re-analysis of the deposited data

Results flagged for a closer look

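Within-group values were examined for a single line far from the others in 97 groups of 4 or 5 lines. For continuous values chance alone marks about 1 in 20. That rate does not hold for small counts with ties, where 1 line that differs from equal others passes by construction. The distance of the extreme line from its neighbour, relative to the range, passed Dixon's limit in 7. The percentile of the Polr2f promoter peak was 56.1 in Ma_1007, the lowest of the Ecad lines. Ma_1069, the ΔEcad line with the shortest list, called the fewest junction genes (5 of 28) and the fewest RAS-MAPK feedback genes (17 of 24) of its group. Among Ecad lines, Ma_1014 called 8 of 10 melanocyte markers, the fewest. Ma_1007 called the most fibroblast markers (2 of 10) and endothelial markers (2 of 10) and the fewest keratinocyte markers (0 of 10) of the Ecad lines. These marker counts are of the tied kind and rest on 1 or 2 genes.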

How the results depend on the processing

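The number of genes leaning to ΔEcad, 5 in the full lists, was 15 with lists of equal length, 3 with the 5′ end alone, 66 in female and 25 in male lines, and 2 to 23 with 1 line left out. The number leaning to Ecad, 616, was 1187 in female lines and 467 to 1350 with 1 line left out. With the same number of called promoters per line, chosen after seeing the data, the counts were 124 and 147. The difference in called promoters, ΔEcad minus Ecad, was -2299 in female lines (exact permutation p = 0.1) and -1526.5 in male lines (exact permutation p = 0.333), where the designs cannot pass the threshold. The 258 limma calls became 4 with −log10 q, 136 in the part of the genes with the higher mean, where fewer genes were tested, 2073 without scaling (chosen after seeing the data) and 14 to 324 with 1 line left out. The cause of the other changes was not tested. The leaning counts and the difference in called promoters kept their direction under the alternatives run, and no named gene changed sign, though some differences in share were 0, such as those of Etnk2 and P4htm with the 5′ end alone. The promoter share of the peaks did not (-1.74 percentage points in all lines, 2.10 in male lines), nor did the median width (-50.4 and 22.5 bp in male lines) and fold (0.66 and -0.0574 in female lines) of the other peaks. The limma calls, 133 higher and 125 lower, were 182 and 185 with sex as a covariate, 111 and 121 with a 2 kb window and 64 and 72 in the part with the higher mean. No paired analysis was possible because the labels carry no replicate numbers that pair the lines. The lists give no depth, so an uncalled promoter is not shown to lack H3K27ac, and peaks that miss the window by a few bases count as uncalled.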
